A study of Mus musculus with 2 samples.

Results

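A retained-intron transcript is a form of a gene's RNA, annotated as such in GENCODE M21, in which sequence that other forms splice out is part of an exon. In the adrenal gland libraries described here, 700 of the 21848 annotated transcripts of this type (3.20%) had at least 1 read in each of 2 libraries. These 700 are called members. They were chosen by their annotated type and by those reads, among transcripts that the authors classed as annotated matches, so that having reads in both libraries is not a finding. They belong to 644 genes, of which 594 had 1 member and 50 had 2 or more, with at most 4 in a gene. In all, 14205 annotated nuclear transcripts had a read in each library.

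RNA of adrenal glands was read as long molecules in 1 group of 2 libraries, biological replicates 1 and 2. The mice were female, aged 2 months and of the strain B6CASTF1/J, and no genotype, treatment or second condition is given in the labels. Labels of the tissue samples speak of animals 3 and 4, those of the libraries of animal 3 in both cases, and 1 donor identifier is given throughout, so whether the glands came from separate animals is not settled by the labels. A starting amount of 1 µg total RNA is recorded for replicate 1 alone. Every p-value compares these 2 libraries, not conditions. It sets a difference against the counting error of reads alone, with no spread between replicates, and the difference may be technical.

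Introns are removed from a new transcript by the spliceosome, which recognises a donor site at the 5′ end and an acceptor site at the 3′ end of each intron. An RNA that keeps an intron is often held in the nucleus, and when such an RNA is translated, the ribosome commonly meets a stop codon within the intron. Several genes whose proteins take part in splicing, among them the SR proteins and the CLK kinases that phosphorylate them, are known for forms that keep an intron and for regulation through that step. The adrenal cortex makes steroid hormones from cholesterol, and the medulla makes catecholamines in chromaffin cells.

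The members were of 3 kinds, which differ in what a read has to contain to be counted for them. In 124 members the chain of introns was their own, meaning that no annotated transcript of another type in the same gene holds those introns as a run. In 458 members the introns that were spliced out were also a run of the introns of another annotated transcript, and the extra sequence lay in the first or last exon in most of them. The other 118 members were single exons. This grouping was chosen after the data were seen. The sequences that follow come from members with introns of their own and show intron sequence that such a member keeps and the coding transcript splices out. They are mouse reference sequence of build mm10, read from the GENCODE M21 transcript of each member, 5′ to 3′, and the mice are a cross, so the reference stands for the locus and not for the alleles in the animals.

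For 5 genes whose proteins act in splicing, the intron is shown from its first base to the first stop codon in the reading frame of the coding transcript, with the donor dinucleotide and that stop codon in capitals. Intron numbers are those of the coding transcript. Clk1-212 keeps both intron 3 and intron 4, and the stop codon in intron 3, at its base 4, comes first in the RNA.
Clk1-212, intron 3 of 12, chr1:58421077-58421082, minus strand: GTaTGA
Clk1-212, intron 4 of 12, chr1:58420059-58420120, minus strand: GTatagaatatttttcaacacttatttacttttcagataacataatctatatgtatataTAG
Srsf7-207, intron 3 of 7, chr17:80205174-80205261, minus strand: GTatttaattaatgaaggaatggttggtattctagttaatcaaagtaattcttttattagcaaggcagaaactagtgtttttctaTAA
Srsf5-212, intron 5 of 7, chr12:80947866-80947874, plus strand: GTttgtTGA
Arglu1-204, intron 2 of 3, chr8:8683643-8683747, minus strand: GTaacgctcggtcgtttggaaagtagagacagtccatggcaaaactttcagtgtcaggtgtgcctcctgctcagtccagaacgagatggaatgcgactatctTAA
Srpk1-212, intron 10 of 15, chr17:28600100-28600242, minus strand: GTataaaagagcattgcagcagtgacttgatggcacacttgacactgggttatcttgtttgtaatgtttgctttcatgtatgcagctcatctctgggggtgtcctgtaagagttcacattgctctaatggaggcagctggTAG
For Ccnl2-205, an exon in the middle of the transcript starts 1790 bases early within the intron, and the last 30 of those bases are shown up to the acceptor dinucleotide of the coding exon, in capitals.
Ccnl2-205, chr4:155820299-155820328, plus strand: gcattacagtcttcctggttttggtttcAG
For members that keep a short intron, the whole intron is shown, with the donor and acceptor dinucleotides and the first stop codon in frame in capitals.
Mdp1-202, intron 2 of 5, chr14:55660099-55660167, minus strand: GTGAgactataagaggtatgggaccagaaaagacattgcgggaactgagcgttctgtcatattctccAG
Slc1a5-202, intron 7 of 8, chr7:16795953-16796023, plus strand: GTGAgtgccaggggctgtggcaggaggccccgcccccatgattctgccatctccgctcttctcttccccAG
Hsd3b7-206, intron 4 of 6, chr7:127801943-127802013, plus strand: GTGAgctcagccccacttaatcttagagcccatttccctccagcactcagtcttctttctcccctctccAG
Ppdpf-206, intron 2 of 4, chr2:181187737-181187808, plus strand: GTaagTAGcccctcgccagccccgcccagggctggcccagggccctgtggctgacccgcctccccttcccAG
Stub1-206, intron 4 of 6, chr17:25831366-25831543, minus strand: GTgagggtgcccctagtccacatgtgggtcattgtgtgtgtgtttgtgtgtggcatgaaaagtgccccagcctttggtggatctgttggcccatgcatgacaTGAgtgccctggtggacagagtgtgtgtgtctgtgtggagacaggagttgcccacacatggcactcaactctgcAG
Maged1-207, intron 7 of 12, chrX:94537756-94537973, minus strand: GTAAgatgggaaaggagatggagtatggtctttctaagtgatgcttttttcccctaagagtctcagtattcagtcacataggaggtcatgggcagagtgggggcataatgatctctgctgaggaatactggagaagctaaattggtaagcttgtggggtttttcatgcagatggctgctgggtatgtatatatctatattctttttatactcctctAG
In Tesc-203 the kept intron of 98 bases holds no stop codon in frame, and only the donor and acceptor are in capitals.
Tesc-203, intron 5 of 7, chr5:118056439-118056536, plus strand: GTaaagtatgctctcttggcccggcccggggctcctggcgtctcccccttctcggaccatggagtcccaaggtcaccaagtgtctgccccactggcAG
For a ribosomal protein gene and for a steroidogenic gene, the intron is again shown up to the first stop codon in frame.
Rpl10a-206, intron 3 of 5, chr17:28329048-28329063, plus strand: GTtggcaccgctcTAA
Cyp11a1-204, intron 3 of 8, chr9:58018394-58018416, plus strand: GTaaggatcttacacatgacTGA

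Members held 6676 of 925699 reads of annotated nuclear transcripts in replicate 1 and 2471 of 411353 in replicate 2. These are 0.721% (exact Clopper-Pearson 95% interval 0.704 to 0.739) and 0.601% (0.577 to 0.625), or 0.661% ± 0.0852 (SD, n = 2). Intervals cover counting error only. Replicate 1 was the deeper library, with 2.25 times the annotated reads of replicate 2. The 3 members with the most reads, Rsrp1-204, Cox4i1-204 and Eprs-204, held 30.7% and 25.9% of all member reads.

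With Rsrp1-204 included, the part held by members with introns of their own differed between the libraries by less than counting error. The parts held by the others were lower in replicate 2. Own-intron members held 0.171% (0.163 to 0.180) of annotated reads in replicate 1 and 0.169% (0.157 to 0.182) in replicate 2. Shared-intron members held 0.451% (0.437 to 0.465) and 0.364% (0.346 to 0.383), and their intervals did not overlap. Without Eprs-204, which alone had 600 reads in replicate 1 and 10 in replicate 2, shared-intron members held 0.386% and 0.362%, with intervals that overlap. Single-exon members held 0.0991% (0.0928 to 0.106) and 0.0669% (0.0592 to 0.0752). Without Rsrp1-204, own-intron members held 0.0863% (0.0804 to 0.0925) and 0.0987% (0.0893 to 0.109), higher in replicate 2 with intervals that overlap. The level total of own-intron members thus depends on Rsrp1-204.

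**Figure D1:**
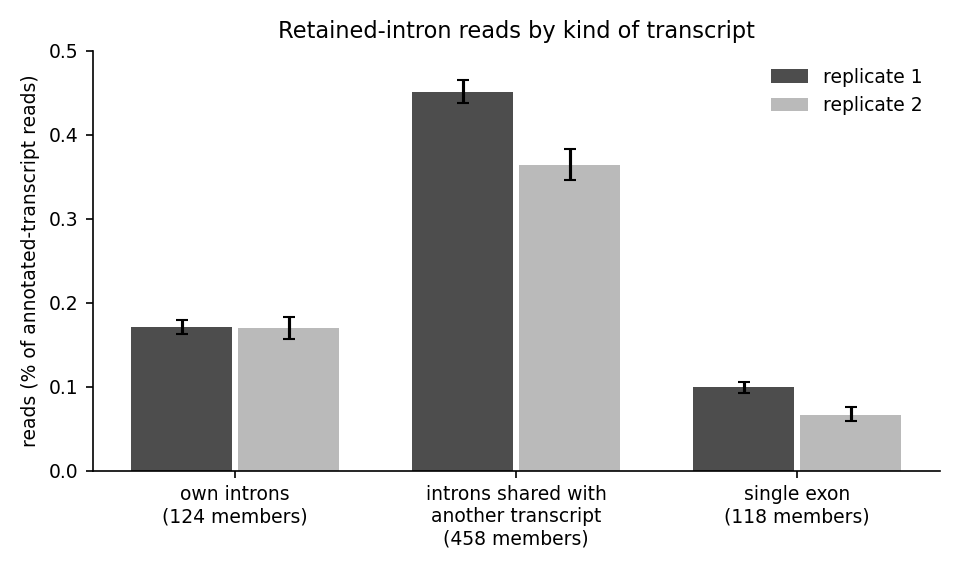
Reads of each kind of member as a percentage of all reads of annotated nuclear transcripts, per library, with exact 95% intervals for counting error. The bars of own-intron members are level at 0.171% and 0.169%, while those of shared-intron members are 0.451% and 0.364% and those of single-exon members 0.0991% and 0.0669%.

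The annotated ends of the members differed by kind as well. Of the 124 own-intron members, 62 started and ended within 50 bases of the annotated ends of protein-coding transcripts of their gene. The start and the end could match different transcripts. The same held for 8.08% of shared-intron and 7.63% of single-exon members. Own-intron members had a median annotated length of 2184.5 bases with 7 exons. It was 889 bases with 3 exons for shared-intron members and 2155 bases for single exons. Among shared-intron members, 305 lacked the 5′ part of the longer transcript's introns, 143 lacked the 3′ part, 6 lacked both and 4 had all of them.

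What a read of a shared-intron member held cannot be read from the deposited tables, which give no read ends. The authors' class of incomplete splice matches holds reads with part of an annotated chain of introns. Of the models of that class that have introns, 0 of 34575 in replicate 1 and 0 of 12950 in replicate 2 carried the chain of any annotated transcript. A model with the whole chain of an annotated transcript is classed as an annotated match. These counts of 0 therefore follow from how the classes are defined and test nothing about the reads of shared-intron members. Whether the reads counted for those 458 members reached the extra exon sequence was not tested.

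Members also lie over other genes. Of all members, 103 overlapped another annotated gene of the same strand and 153 a gene of the other strand, the latter including 46 own-intron members. How strand and shared loci entered the authors' counting is not given in the sources used here, so reads at those loci could belong to the neighbour.

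Most members were a small part of their gene's output. In the 399 member genes with at least 20 annotated reads in each library, the members of a gene together held a median of 2.47% of its annotated reads in replicate 1 and 2.78% in replicate 2, or 2.63% ± 0.216 (SD, n = 2). The quartiles over genes were 1.37% and 6.07% (mean of both libraries). The share was under 5% in both libraries in 249 of these genes (62.4%), over 10% in both in 44 and over 25% in both in 12. It was over 50% in both libraries in 2 genes, Rsrp1 and Ccnl2, and both members have introns of their own. The other genes over 25% in both were Stau1, Cox4i1, Srsf7, Fxyd1, Rpl5, Ppdpf, Trappc4, Ngrn, Mdp1 and Slc27a1.

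The shares of single members were also compared across transcripts, as a description. Over the 445 members in those genes, Pearson's r of the 2 libraries' shares was 0.675 and Spearman's rho 0.696. For 78 own-intron members r was 0.910 and rho 0.796, and r was 0.728 without Rsrp1-204 and Ccnl2-205. For 300 shared-intron members r was 0.642 and rho 0.651, and r was 0.727 without Eprs-204. For 67 single exons r was 0.498 and rho 0.720. All points come from the same pair of libraries and share the depth of their genes, and 1 or 2 members set much of the gap in r between the kinds.

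**Figure D2:**
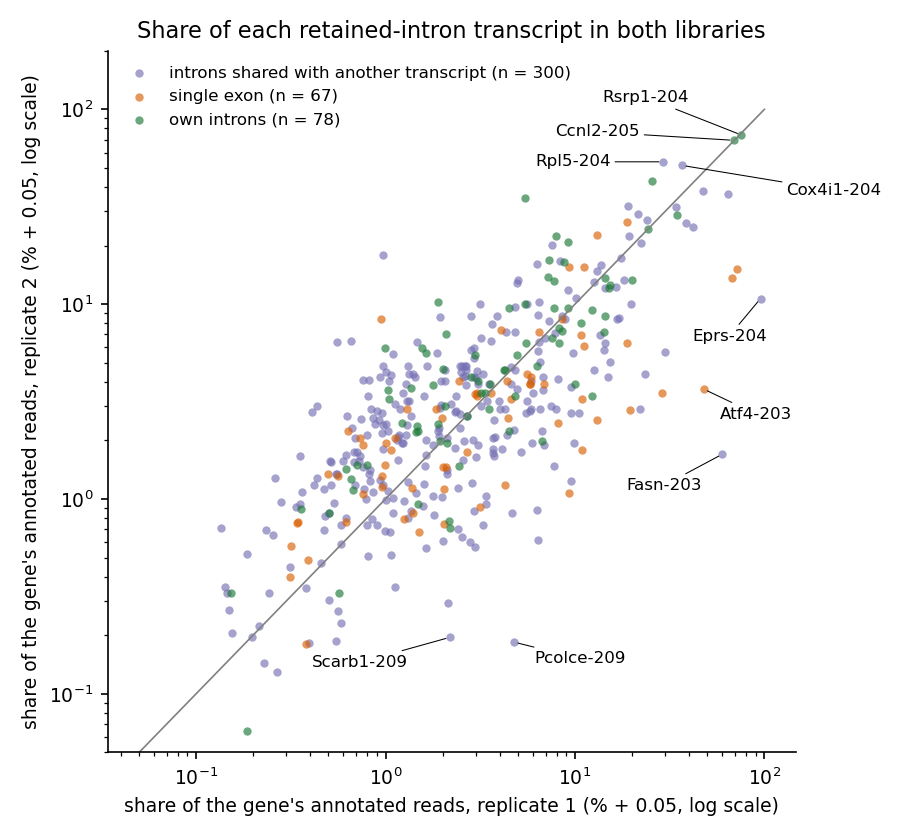
Share of the gene's annotated reads held by each of 445 members in genes with at least 20 annotated reads in each library, replicate 1 against replicate 2, both axes as percent plus 0.05 on a log scale, with the line of equal shares. Rsrp1-204 and Ccnl2-205 lie on the line near 70%, while Eprs-204, Atf4-203 and Fasn-203 lie far below it.

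Each library's shares were also tested against those of the other. A transcript was called when its share of the gene's annotated reads differed at an adjusted p under 0.05 (Fisher's exact test, two-sided, Benjamini-Hochberg over all annotated transcripts tested) and by at least 10 percentage points. Among 3552 annotated transcripts with enough reads, 49 were called (1.38%), of which 25 had the higher share in replicate 2 (0.704%) and 24 the lower (0.676%). Calls fell on 9 of the 132 members deep enough for the test, with a higher share in replicate 2 in 2 of them and a lower one in 7. The rule for members asked for reads in both libraries, so these counts are a description. They were 0 of 26 own-intron members, with 2 at an unadjusted p under 0.05, 5 of 81 shared-intron members and 4 of 25 single exons. With no minimum difference, 15 members and 68 transcripts (1.91%) passed.

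Both members over 50% of the gene in each library, among genes with at least 20 annotated reads in each, came from Rsrp1 and Ccnl2, which are in none of the gene lists used here. Rsrp1, which encodes an arginine and serine rich protein, had 787 of its 1042 annotated reads in Rsrp1-204 in replicate 1 (75.5%, exact 95% interval 72.8 to 78.1) and 291 of 394 in replicate 2 (73.9%, 69.2 to 78.1). The transcript (ENSMUST00000148900.7, chromosome 4, 134923592 to 134927671 of mm10, plus strand) keeps the third intron of the coding transcript, 1302 bases long, whole within an inner exon. The share of each library lay within the interval of the other, and the spliced coding form, Rsrp1-201, had 248 and 101 reads.

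Ccnl2 encodes cyclin L2, a cyclin of nuclear speckles that takes part in splicing. Its member Ccnl2-205 (ENSMUST00000139066.7, chromosome 4, 155812501 to 155824543, plus strand) had 111 of 161 annotated reads in replicate 1 (68.9%, 61.2 to 76.0) and 52 of 75 in replicate 2 (69.3%, 57.6 to 79.5). The coding form, Ccnl2-201, had 48 and 23 reads. As for Rsrp1, the retained-intron form was the most read annotated transcript of the gene in both libraries.

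Members from the list of SR proteins and their kinases came from genes with fewer reads, and their intervals were wider. Clk1, a kinase that phosphorylates SR proteins, had 26 of 39 annotated reads in Clk1-212 in replicate 1 and 8 of 15 in replicate 2, which are 66.7% and 53.3%. Clk1-212 (chromosome 1, 58410189 to 58424066, minus strand) keeps 2 neighbouring introns of 387 and 871 bases, and the fully spliced Clk1-201 had 9 and 5 reads. Srsf7, an SR protein, had 14 of 55 reads in Srsf7-207 in replicate 1 and 9 of 21 in replicate 2, which are 25.5% and 42.9% with overlapping intervals (14.7 to 39.0 and 21.8 to 66.0). Srsf7-207 (chromosome 17, 80201312 to 80207305, minus strand) keeps an intron of 874 bases. Srsf5, another SR protein, had 11 of 55 and 4 of 30 reads in Srsf5-212 (chromosome 12, 80945532 to 80950503, plus strand), which keeps an intron of 1229 bases.

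Arglu1, an arginine and glutamate rich protein that acts in splicing, and Srpk1, a kinase of SR proteins, were chosen for mention after their values were seen, and Arglu1 is in none of the lists. Arglu1-204 had 18 of 74 reads in replicate 1 and 14 of 58 in replicate 2, which are 24.3% and 24.1%. It keeps an intron of 2280 bases, the largest among the sequences shown, and Arglu1-201 had 56 and 44 reads. Srpk1-212 had 6 of 40 and 3 of 25 reads. For both members the intervals of the libraries overlapped.

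Across the list of SR proteins and their kinases, 4 of 13 genes with at least 20 annotated reads in each library had a member (30.8%), against 399 of 3643 over all genes (11.0%). Retained-intron transcripts are annotated in 16 of the 18 listed genes, 62 in all. Of these 62, 9 were members, beside 3.20% over all genes and 7.50% over genes with enough annotated reads. Counting genes of any depth, 7 of 18 listed genes had 9 members in all, of which 5 had introns of their own. They held 73 and 40 reads, and the median share of the members in genes with at least 20 reads was 13.6%, beside 2.70% for all members. The difference from all genes was not tested, and the list was drawn up with earlier results of these data known.

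Spliceosome proteins and hnRNPs, which bind new transcripts, had members in 5 of 22 genes with enough reads (22.7%), beside 11.0% over all genes. The median share was 5.17%. Snrnp70 encodes a protein of the U1 particle, which binds the donor site, and Snrnp70-216 had 11 of 126 and 8 of 49 reads, 8.73% and 16.3%. Luc7l-204, from a gene for a protein of the same particle, had 5 of 35 and 2 of 23 reads. Luc7l2-206 had 9 of 20 and 7 of 8 reads, but its introns are shared with another transcript and its intron sequence lies in the last exon. Snrnp70-216 and Luc7l-204 have introns of their own.

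**Figure D3:**
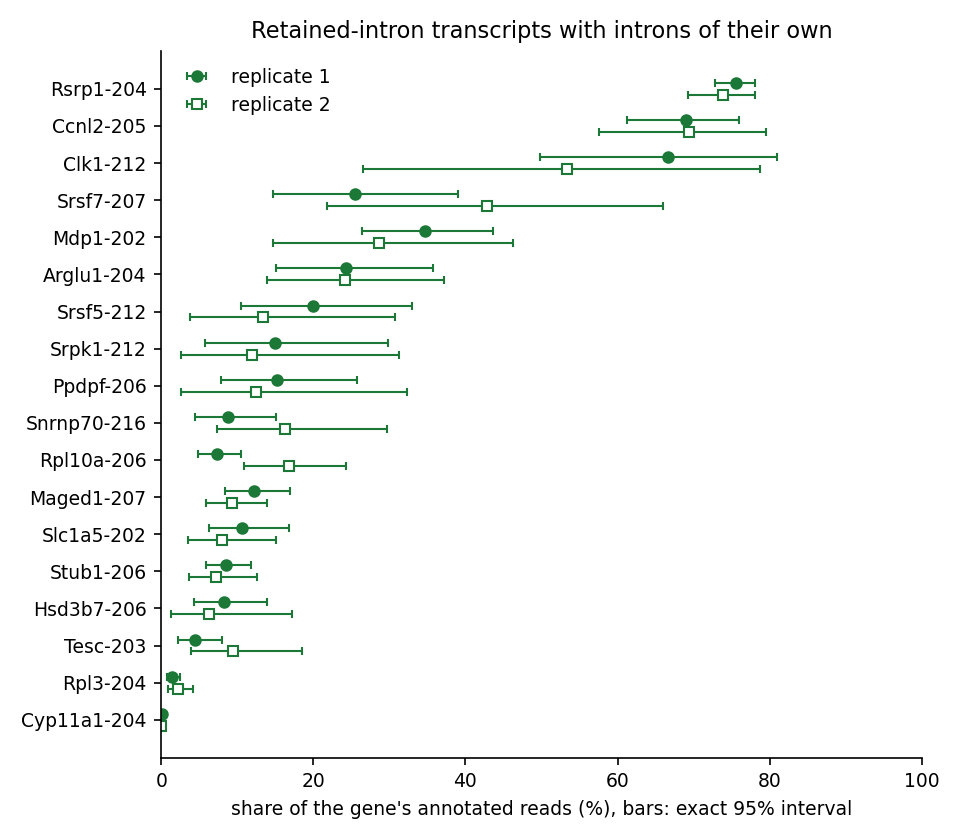
Share of the gene's annotated reads held by 18 members with introns of their own, with exact 95% intervals for each library. Rsrp1-204 and Ccnl2-205 stand at the top with narrow intervals, the intervals of both libraries overlap except for Rpl10a-206 and Cyp11a1-204, and Cyp11a1-204 is at the bottom near 0.

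A second set of own-intron members keeps a short intron inside an otherwise fully spliced transcript; these were chosen after their values were seen. Mdp1, a magnesium-dependent phosphatase, had 44 of 127 reads in Mdp1-202 in replicate 1 and 10 of 35 in replicate 2, 34.6% and 28.6%. Mdp1-202 (chromosome 14, 55657894 to 55660451, minus strand) differs from the coding transcript by an intron of 69 bases, whose first stop codon in frame starts at its base 2. It overlaps another annotated gene on the same strand, Gm49299, so some reads could belong to that gene.

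Maged1, a protein of the MAGE family, had 31 of 254 and 21 of 226 reads in Maged1-207, 12.2% and 9.29%. Stub1, a ubiquitin ligase that works with chaperones, had 32 of 375 and 11 of 152 reads in Stub1-206, 8.53% and 7.24%. Slc1a5, a transporter of neutral amino acids, had 16 of 150 and 8 of 100 reads in Slc1a5-202, 10.7% and 8.00%. In these 3 genes the shares of both libraries lay within each other's intervals.

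Hsd3b7, a dehydrogenase of bile acid synthesis, had 12 of 146 and 3 of 48 reads in Hsd3b7-206, and Hsd3b7-210, which keeps the same intron of 71 bases and a further intron in its last exon, had 8 and 3. Ppdpf had 11 of 72 and 3 of 24 reads in Ppdpf-206, and its 3 members together held 40.3% and 37.5% of its reads. Tesc, a calcium-binding protein, had 10 of 225 and 7 of 74 reads in Tesc-203, 4.44% and 9.46%. The kept intron of Tesc-203 is the one shown without a stop codon in frame.

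Cytosolic ribosomal protein genes, the longest list with 78 genes, had the most members, and most were of the shared-intron kind. Members were found in 23 of 69 genes with enough reads (33.3%), beside 11.0% over all genes. The 29 members held 324 and 138 reads. Of these members, 24 had shared introns, beside 458 of all 700, while 2 were single exons and 3 had introns of their own. The difference from all genes was not tested. The median share was 2.12%. Many ribosomal protein genes have processed pseudogenes of near-identical sequence, so their counts are uncertain.

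Rpl5, a protein of the large subunit, had 60 of 206 annotated reads in Rpl5-204 in replicate 1 and 50 of 93 in replicate 2. These are 29.1% (23.0 to 35.8) and 53.8% (43.1 to 64.2), and the intervals do not overlap. Rpl5-204 (chromosome 5, 107904114 to 107908050, plus strand) lacks the 5′ part of the gene, has 603 extra bases in its first exon, and lies over a small nucleolar RNA gene, Snord21.

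Among own-intron members of this list, Rpl10a-206 had 26 of 357 and 22 of 131 reads, 7.28% (4.81 to 10.5) and 16.8% (10.8 to 24.3). It keeps an intron of 326 bases, and its difference had a raw p of 0.00315 and an adjusted p of 0.139 by Fisher's exact test, so that it did not pass. Rpl3-204, which keeps an intron of 583 bases and was chosen after its values were seen, had 12 of 854 and 8 of 372 reads. Translation factors had members in 3 of 30 genes (10%), beside 11.0% over all genes. These were Eif3l-204, Eef1d-211 and Eif3e-204, with 1 to 3 reads in each library.

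The tRNA synthetases, which load amino acids onto tRNAs, held the member with the largest gap between the libraries. Eprs, the synthetase for glutamate and proline, had 600 of 629 annotated reads in Eprs-204 in replicate 1 and 10 of 94 in replicate 2, 95.4% (93.4 to 96.9) and 10.6% (5.22 to 18.7). The full coding form, Eprs-201, had 28 and 84 reads. Eprs-204 (ENSMUST00000192284.5, chromosome 1, 185363044 to 185410199, plus strand) shares its introns with Eprs-201, ends 18161 bases before the end of the gene and extends its last exon through an intron of 2431 bases.

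The other 4 members of this list had introns of their own and few reads. Mars-205, for methionine, had 5 of 382 and 3 of 82 reads, and Nars-215, for asparagine, had 4 of 280 and 1 of 112. In all, 5 of 24 synthetase genes with enough reads had a member (20.8%), beside 11.0% over all genes, and the median share was 2.48%.

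Respiratory chain genes had members in 9 of 51 genes (17.6%), beside 11.0% over all genes. Of these 9 members 0 had introns of their own, beside 124 of all 700, and 9 are too few to give that 0 a meaning. Cox4i1, a subunit of cytochrome c oxidase, had 660 of 1800 annotated reads in Cox4i1-204 in replicate 1 and 338 of 656 in replicate 2, 36.7% (34.4 to 38.9) and 51.5% (47.6 to 55.4). Cox4i1-201, the coding form, had 1110 and 311 reads. Cox4i1-204 (ENSMUST00000181172.1, chromosome 8, 120672590 to 120674113, plus strand) has 3 exons, which lie within exons of Cox4i1-201 apart from 135 bases at the start of the first. It overlaps Gm20388, a gene of the same strand, so some reads could belong to that gene.

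Cyc1-204, of cytochrome c1 in complex III, had 34 of 871 and 12 of 381 reads, and Atp5b-205, of ATP synthase, had 12 of 3503 and 2 of 1506. The 9 members together held 718 and 363 reads, of which Cox4i1-204 held most. Chaperone genes had members in 6 of 27 genes (22.2%). Of these 6 members 0 had introns of their own, again too few to give the 0 a meaning. Their most read member, Hspe1-202, from the gene of a mitochondrial chaperonin, had 20 of 1086 and 5 of 229 reads, while Cct5-202 and Hspa5-203 had 1 to 3.

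**Figure D4:**
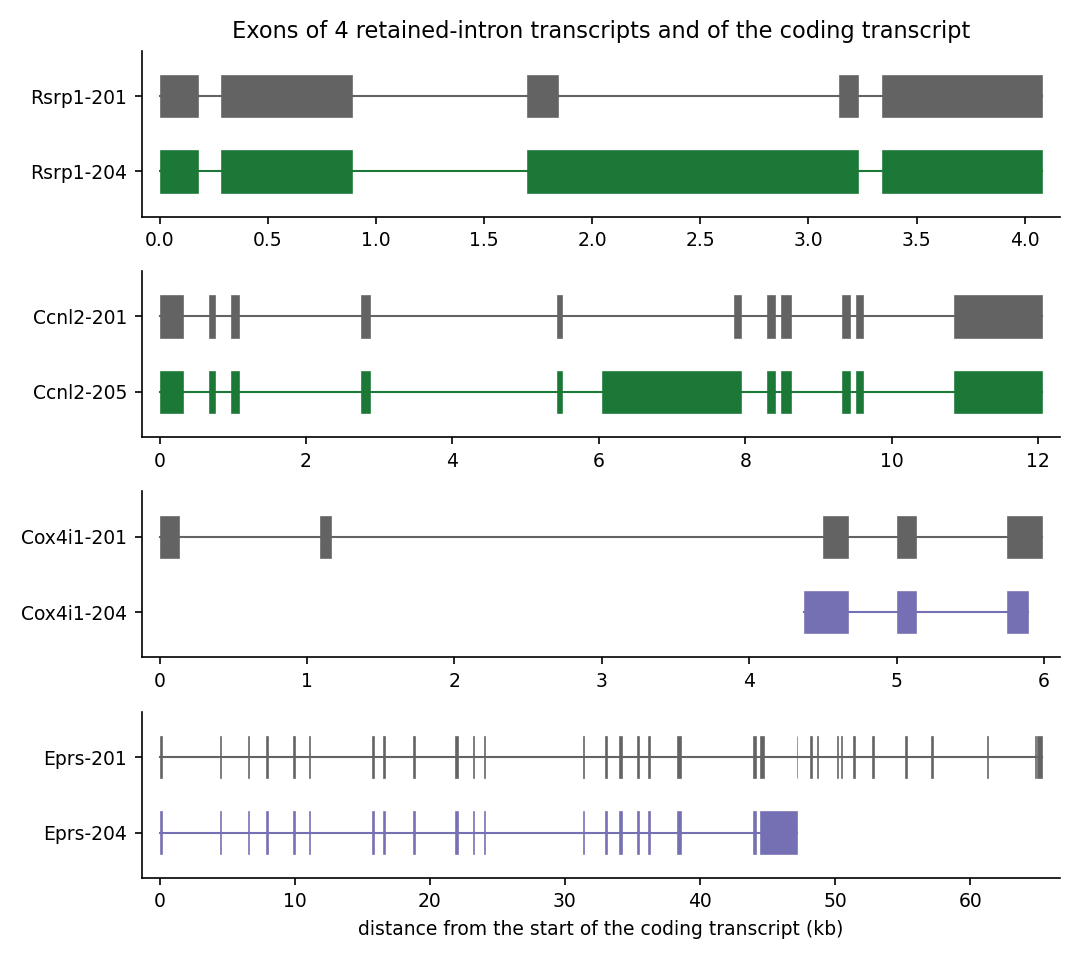
Exons (boxes) and introns (lines) of 4 members, in colour, under the coding transcript of the gene, in grey, by distance from the start of the coding transcript in kilobases. Rsrp1-204 and Ccnl2-205 run the full length and differ by a longer inner exon, whereas Cox4i1-204 and Eprs-204 cover the 3′ part and the 5′ part of the gene and differ only in their first and last exon.

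Steroidogenic genes held 7.33% and 9.15% of all reads of annotated nuclear genes, and 1 of the 19 with enough annotated reads had a member, beside 11.0% over all genes. Retained-intron transcripts are annotated in 7 of the 21 listed genes, 11 in all, and 1 of these 11 was a member, beside 3.20% over all genes and 7.50% over genes with enough annotated reads. That gene was Cyp11a1, whose enzyme cuts the side chain of cholesterol. Cyp11a1-204 (chromosome 9, 58014997 to 58022386, plus strand), with introns of its own and an intron of 899 bases kept, had 20 of 14707 annotated reads in replicate 1 and 1 of 6969 in replicate 2. These are 0.136% (0.0831 to 0.210) and 0.0143% (0.000363 to 0.0799), and the difference had a raw p of 0.00439 and an adjusted p of 0.164 by Fisher's exact test.

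Genes of the chromaffin cells of the medulla, with 8 genes deep enough, had 0 members among their 11 annotated retained-intron transcripts, a number too small to set against those shares. The chromaffin list held 1.38% of gene reads in replicate 1 and 0.850% in replicate 2. In whole tissue, fewer cells of a type and less RNA per cell cannot be told apart.

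Genes that supply cholesterol had 7 members, of which 6 had shared introns and 1 was a single exon. They lay in 5 of 23 genes with enough reads (21.7%, beside 11.0% over all genes) and 1 gene below that depth. Scarb1, the receptor that takes up cholesterol esters from high-density lipoprotein, had 62 of 2900 annotated reads in Scarb1-209 in replicate 1 and 2 of 1380 in replicate 2, 2.14% and 0.145%. Fdps, farnesyl diphosphate synthase, had 13 of 975 and 3 of 277 reads in the single exon Fdps-205. Srebf2, the transcription factor of cholesterol synthesis, had 5 of 7 and 3 of 18 reads in Srebf2-205, too few to place its share.

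Marker lists of other cell types were short, with 5 to 8 genes each. Members numbered 2 for adipocytes, 1 for endothelium, 1 for macrophages and 2 for red blood cells. There were 0 for the capsule with fibroblasts and for lymphocytes. Of genes with enough reads, 2 of 8 adipocyte, 0 of 4 endothelial and 1 of 5 macrophage markers had a member. So did 2 of 4 red blood cell and 0 of 3 capsule markers, beside 11.0% over all genes. Lists this short cannot be set against that share. The adipocyte list of 8 genes, all read, held 0.843% and 0.899% of gene reads. The other lists held from 0.00318% to 0.117%, and 2 of 6 lymphocyte markers were at 0 in both libraries. What these cells add to the other values was not tested.

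Several of the most read members came from genes outside these lists. Pgp, phosphoglycolate phosphatase, had 116 of 618 and 54 of 204 reads in the single exon Pgp-202, 18.8% and 26.5%. Pepd, a peptidase for dipeptides ending in proline, had 58 of 271 and 32 of 111 reads in Pepd-202, which lies at the 3′ end of the gene with its first exon 189 bases longer. Ndufa7, a complex I gene that the respiratory chain list does not hold, had 58 of 354 and 10 of 82 reads in Ndufa7-204, 16.4% and 12.2%. Psmb6, a proteasome subunit, had 60 of 423 and 7 of 121 reads in Psmb6-202. Fxyd1, a regulator of the sodium pump, had 49 of 104 and 16 of 42 reads in Fxyd1-213, which has 16 bases outside the coding exons and no whole intron. Stau1, a protein that binds double-stranded RNA, had 36 of 56 and 18 of 49 reads in Stau1-209, 64.3% and 36.7%.

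Cox4i1-204 and Rpl5-204, described above, were the 2 members higher in replicate 2, with adjusted p of 1.40e-08 and 0.00461 by Fisher's exact test. Eprs-204 was lower in replicate 2 with an adjusted p of 2.62e-69. The other 6 were lower as well. Both members that were higher lack the 5′ part of their genes, as do 305 of the 458 shared-intron members. Eprs-204 lacks the 3′ part, as do 143 of the shared-intron members.

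Atf4, the transcription factor of the integrated stress response, had 96 of 201 reads in the single exon Atf4-203 in replicate 1 and 3 of 83 in replicate 2, 47.8% and 3.61% (adjusted p = 5.61e-12, Fisher's exact test). Fasn, fatty acid synthase, had 12 of 20 and 3 of 182 reads in Fasn-203 (adjusted p = 2.38e-09, Fisher's exact test). Hs6st1, a sulfotransferase for heparan sulfate, had 35 of 49 and 5 of 33 reads in the single exon Hs6st1-202. Slc25a22, a mitochondrial glutamate carrier, had 37 of 55 and 5 of 37 reads in the single exon Slc25a22-221, and both of these had an adjusted p of 5.56e-05 by Fisher's exact test.

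Bhlhe40, a transcriptional repressor of the circadian clock, had 13 of 45 and 2 of 58 reads in the single exon Bhlhe40-204 (adjusted p = 0.0222, Fisher's exact test). Ptms, parathymosin, had 38 of 128 and 3 of 53 reads in Ptms-203 (adjusted p = 0.0194, Fisher's exact test). It was named because it completes the called members. In each of these 6 members the retained-intron form held a larger part of the gene in replicate 1. Each share also depends on the reads of the gene's other forms. The coding forms Hs6st1-201 and Slc25a22-201 had fewer reads in the deeper replicate 1, with 14 against 28 and 13 against 22. Fasn had 20 annotated reads there and 182 in replicate 2. Atf4-201 and Ptms-201 had more reads in replicate 1, with 105 against 80 and 89 against 50.

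Itm2c, a membrane protein, and Tkt, the transketolase of the pentose phosphate pathway, had members that lack the 5′ part of the gene. Itm2c-202 had 103 of 1620 and 4 of 711 reads, 6.36% and 0.563%. Tkt-208 had 90 of 1433 and 6 of 726 reads, 6.28% and 0.826%. Both differences had an adjusted p under the threshold and were smaller than the 10 percentage points asked of a call.

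The libraries themselves differed in how many reads were partial. Reads of the class of incomplete splice matches numbered 140038 in replicate 1 and 35599 in replicate 2, a ratio of 3.93 against 2.25 for annotated reads. Of the called members, 7 were lower in replicate 2, while Cox4i1-204 and Rpl5-204 were higher. Lacking the 5′ part of the gene does not set these 2 apart, since 305 of the 458 shared-intron members lack it. Itm2c-202 and Tkt-208 lack it too and had lower shares in replicate 2. What part the difference in partial reads has in these calls was not tested. Depth differs too, and with replicate 1 thinned to the total of replicate 2, 5 members were called, namely Atf4-203, Cox4i1-204, Eprs-204, Ptms-203 and Slc25a22-221.

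The introns that members keep whole were short. Counted were introns of protein-coding transcripts that lie wholly inside an exon of a member. In 274 genes, 547 distinct introns were kept, with a median of 250 bases and quartiles of 117.5 and 635. Overlapping introns with different ends count separately. With introns of the most read protein-coding transcript of each gene alone, chosen later, 391 were kept, with a median of 236 bases. The 6817 other introns of the protein-coding transcripts of member genes had a median of 1048 bases, with quartiles of 326 and 2891. Introns of at most 100 bases made up 19.2% of kept and 7.76% of other introns, and those of at most 1000 bases 85.0% and 49.1%. This describes the annotation of the transcripts that were read. Retained-intron transcripts without reads in these libraries, in genes with at least 20 annotated reads, keep 1990 introns with a median of 220 bases, so short introns are not particular to the transcripts that were read.

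**Figure D5:**
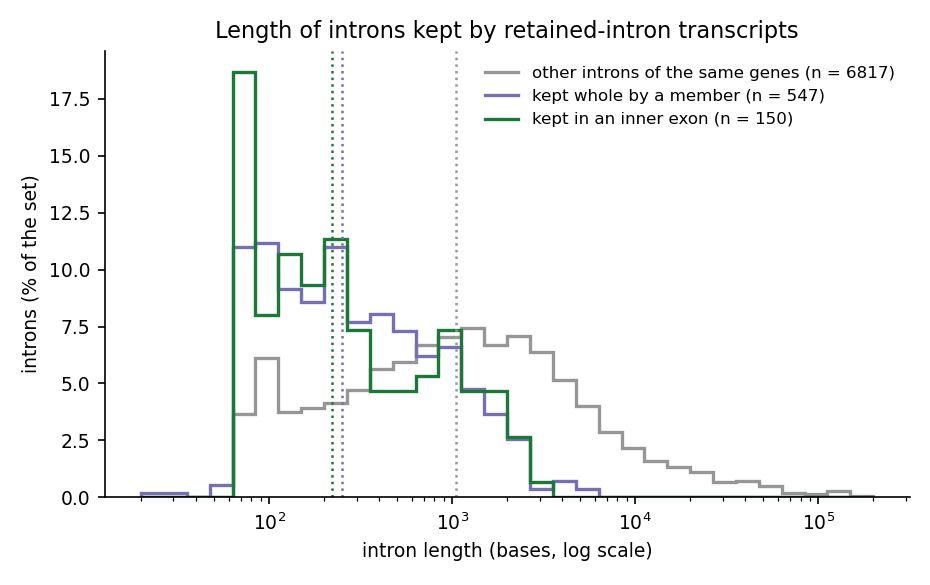
Length of introns on a log axis, as the percentage of each set per bin, for 547 introns kept whole by a member, the 150 of these kept in an inner exon, and the 6817 other introns of protein-coding transcripts of member genes, with dotted lines at the medians of 250, 221 and 1048 bases. Kept introns lie to the left of the other introns.

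Kept introns began with GT in 97.4% of cases, and 12 of 547 had a GC donor with an AG acceptor. Their median GC content was 54.4%, beside 51.7% for the introns of unread retained-intron transcripts. First introns made up 30.5% of kept introns and 17.5% of the others, and last introns 16.8% and 12.5%. Among introns of unread retained-intron transcripts, 9.85% were first and 7.64% last introns. Of the introns kept in a first or last exon of a member, 46.2% were first introns of the coding transcript, against 2.00% of those kept in an inner exon. This contrast follows in part from the grouping, since an inner exon has another exon of the member before it.

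Most kept introns held a stop codon in the reading frame of a coding transcript. Each intron was read alone in that frame, and whether the member holds the start of the frame was not tested. In 442 kept introns with a frame set by a coding transcript, 394 held a stop codon in frame (89.1%), at a median of base 42. For introns in inner exons this was 122 of 133 (91.7%), at a median of base 34, and for introns of unread retained-intron transcripts 1565 of 1807 (86.6%). The 48 kept introns without a stop had a median length of 95 bases. By place, 462 of the kept introns lay in the coding sequence, 69 in a 5′ and 16 in a 3′ untranslated region.

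A whole intron was not part of every member. It lay in an inner exon in 114 members (1438 and 621 reads) and in a first or last exon in 138 (1524 and 369 reads). In 330 members with more than 1 exon (2797 and 1206 reads) no whole intron of a coding transcript was kept, and the sequence outside coding exons had a median of 283 bases. That sequence lay only in the first exon in 194 of them, only in the last in 99, in both in 29 and in an inner exon in 6, among them Ccnl2-205. In 2 of them no base lay outside coding exons.

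The minimum of reads set which transcripts are members. At the edge, 157 members had 1 read in each library, and 420 had 1 read in at least 1 of them. Just outside, 1650 retained-intron transcripts were read in replicate 1 only, with a median of 1 read, and 366 in replicate 2 only. The median member had 3 reads in replicate 1 and 1 in replicate 2, and 24 members had 10 or more in each. In genes with at least 20 annotated reads in each library, 445 of 5934 annotated retained-intron transcripts were members (7.50%), beside 168 of 1692 transcripts annotated as subject to nonsense-mediated decay (9.93%).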

How the data were processed

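The authors deposited, for each library, whole-number read counts per transcript model with the matching models. The deposited readme files say that the counts derive from filtered alignments, and build mm10 with GENCODE M21 is given there. The labels' protocols cite an ENCODE document on long-read analysis, version 3.0. New models carry the source name TALON in the file headers' source field. The aligner and the TALON version were not given in the sources used. All 141862 annotated models had the exons and types of M21. Depth was 1277310 and 520388 reads.

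Members were rows of the authors' class of annotated matches with the type retained_intron and at least 1 read in each library. Shares were computed per gene over annotated matches with Python 3.11.15, pandas 2.3.3 and SciPy 1.17.1, so no scaling between libraries was needed. Tested transcripts had at least 10 reads over both libraries, in genes with at least 20 annotated reads in each and at least 1 read of another annotated transcript. On 3552 simulated transcripts with 200 shifted by 25 percentage points, the test called 68.5% of the shifts (87.2% in genes with at least 50 reads) and 2 of 3352 unchanged transcripts. The simulation held counting error only. Introns under 20 bases were left out, and stop codons were read in the frame of the coding transcript. Intron sequence was read from the GENCODE transcript sequences of members.

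Members and gene lists were chosen with earlier results of these data known. The named members were the 12 with the most reads, the 10 with the highest mean share in genes with at least 20 reads, the 6 called members with the largest difference, and the 3 most read of each list of splicing, tRNA synthetase, ribosomal, translation, steroidogenic, cholesterol, chromaffin, respiratory chain and chaperone genes. Other members were named after their values were seen, and 1 member that the rule names is not reported here. The alternatives tried are read minimums, other denominators, thinning, members with more than 1 exon or with a whole intron, and each library alone.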

Additional observations from a re-analysis of the deposited data

Results flagged for a closer look

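Some retained-intron transcripts lay outside the members because 1 library had no read of them, although the other had more than 3 reads. There were 161 of these, 157 read in replicate 1 only and 4 in replicate 2 only. A count of 0 allows 3 reads in the library with the 0, which are 0.000324% of annotated reads in replicate 1 and 0.000729% in replicate 2. The limit was not scaled by depth, so a 0 in replicate 2 allows more than 3 reads in replicate 1. The counts of 157 and 4 therefore do not compare the libraries. How many of the 157 exceed what a 0 in replicate 2 allows was not tested. The translation factor gene Eif2s2 had 69 of 327 annotated reads in Eif2s2-202 and 52 in Eif2s2-203 in replicate 1, and 0 of 177 in replicate 2. Metap2, a methionine aminopeptidase, had 49 of 278 reads in Metap2-209 against 0 of 117. Ddx24, an RNA helicase, had 44 of 196 reads in Ddx24-204 against 0 of 105, and Mtdh had 27 of 43 in Mtdh-209 against 0 of 26. The most read in replicate 2 only was Sipa1l3-203, with 6 of 9 reads. Replicate 1 was 2.45 times as deep over all reads. Of these transcripts, those with enough reads were among the 3552 tested between the libraries. They were chosen here for their reads, so no test result is given for them singly.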

How the results depend on the processing

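No paired analysis was possible because there is 1 group. The number of members, 700, became 159 with at least 3 reads in each library, 24 with at least 10, 325 when an exon had to hold a whole intron of another annotated transcript, and 1066 to 2350 when 1 library alone set the rule. The share of annotated reads, 0.661%, became 0.522% over reads of all classes, 0.296% with at least 10 reads in each library and 0.356% with a whole intron, and was 0.601% to 0.721% with 1 library left out. The median share per gene, 2.63%, became 6.05% with no minimum of reads, 1.11% with at least 100 reads, 2.11% over reads of all classes and 2.47% to 2.78% with 1 library left out. The 9 called members became 5 with at least 50 reads per gene, 15 with no minimum difference, 5 after thinning and 5 with more than 1 exon. Over reads of all classes 8 were called, while 9.51% of all transcripts tested were. Alternatives chosen after the data were seen kept own-intron members only, which gave 124 members, a share of 0.170%, a median of 4.03% and 0 calls (2 at an unadjusted p under 0.05, Fisher's exact test). Kept introns in inner exons only, also chosen later, had a median of 221 bases against 250. Thinning gave 503 members and more than 1 exon 582, both within 1.5 times of 700. The cause was not tested beyond the construction of each alternative. With a median of 3 reads and 1 read per member, depth limits what single shares can show.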

Other observations

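Small RNA genes were annotated within 8 of the 547 introns kept whole by a member (1.46%) and within 74 of the 6817 other introns of the protein-coding transcripts of member genes (1.09%). The kept introns with a small RNA gene lie in Nop56 (Gm23650 and Gm23187), Oaz1 (Mir1982), Rab4b (Mir3101), Skiv2l (Mir6970) and Stx5a (Mir6992). Overlapping introns with different ends were counted separately. Gm23187 was thus counted in Nop56 introns of 343 and 822 bases, and Mir1982 in Oaz1 introns of 74 and 96 bases. Nop56 encodes a core protein of box C/D small nucleolar ribonucleoproteins. Long reads of this kind do not measure the small RNAs themselves.

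Other annotated types were set beside the called members. Of transcripts annotated as subject to nonsense-mediated decay, 0 of 48 tested were called between the libraries by Fisher's exact test. Of processed transcripts 0 of 61 were called, against 33 of 3281 protein-coding transcripts. Over all types 49 of 3552 were called (1.38%), a share at which 48 or 61 transcripts are too few to give 0 calls a meaning. The shares of a gene's forms add up to the whole, so calls of different types are not separate. Of all retained-intron transcripts tested, including those read in 1 library only, 16 of 151 were called. Whether the types differ in this respect was not tested.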
